A study of Mus musculus with 24 samples.

Results

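The transcripts described here are those of 34 genes that build cholesterol, sense its level, move it within the cell and send it out of the cell, measured in the livers of mice fed ethanol with or without binges. The list was fixed by name, and it was chosen with earlier results of these data known. It holds 7 genes of the mevalonate pathway, 11 of the squalene and sterol pathway, 4 that control the transcription factor SREBP-2, 2 of sterol transport in the cell, 2 LXR receptors, 4 efflux transporters and 4 of esterification and HDL handling. All 34 genes had a matched probe, 32 could be tested in at least 1 comparison and 27 in every one. Their 54 probes all passed the filter on dim probes, out of 36648 probes that passed among 41174 on the array, and 17874 genes in all had a named probe that passed. A gene with several probes is represented by its brightest well-measured probe, and 18 genes had 1 probe, 12 had 2 and 4 had 3.

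RNA of mouse liver was labelled with the dye Cy5 and a reference RNA with the dye Cy3, and both were hybridized to 1 Agilent 2-colour array per sample, 24 arrays in all. Each value is log2 of Cy5 over Cy3, so that 1 unit is a 2-fold difference from the reference RNA of that array. All groups were male C57BL/6N mice with no transgene named. The labels give no ages, and they do not say whether each replicate is its own animal, so a p-value covers the spread among these arrays, which may be technical. Pair-fed mice served as controls after 10 days (P10d, 3 arrays) or 8 weeks (P8w, 4 arrays). Ethanol was fed for 8 weeks alone (E8w, 5 arrays), for 10 days with 1 binge (E10d1B, 3 arrays), for 8 weeks with 1 binge (E8w1B, 5 arrays), or for 8 weeks with binges 2 times a week (E8wMB, 4 arrays). A binge was 5 g ethanol per kg body weight. The label of the reference names a commercial RNA of assorted mouse tissues, while other fields of the same channel name liver, so its makeup is uncertain.

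Cholesterol is built from acetyl-CoA through mevalonate, farnesyl diphosphate, squalene and lanosterol. When membrane sterols are low, SCAP carries SREBP-2 out of the endoplasmic reticulum, and the cleaved factor switches on the synthesis genes and Insig1. INSIG proteins hold SCAP back when sterols are high, and in liver Insig2 also has a transcript that insulin represses. Oxysterols, which arise from cholesterol, activate the LXR receptors, whose targets include the exporters Abca1, Abcg1, Abcg5 and Abcg8.

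The RefSeq promoters of 4 members are printed to show the letters in front of genes that the comparisons turn on, Insig1, Insig2 and Abca1, beside Hmgcs1, a synthesis gene that passed no test. RefSeq windows of GRCm38.p6 were given for 26 of the 34 members. Capitals mark 3 motifs searched on both strands in the 250 bases before a start: the sterol regulatory element core TCACNCCAC, the E-box CACGTG and the CCAAT box, CCAAT or ATTGG. No motif overlapped another in these stretches. For Insig2 and Abca1, which have further starts downstream, the stretch printed ends at the first base annotated as part of the gene.
Insig1, chr5:28071162-28071411, plus strand: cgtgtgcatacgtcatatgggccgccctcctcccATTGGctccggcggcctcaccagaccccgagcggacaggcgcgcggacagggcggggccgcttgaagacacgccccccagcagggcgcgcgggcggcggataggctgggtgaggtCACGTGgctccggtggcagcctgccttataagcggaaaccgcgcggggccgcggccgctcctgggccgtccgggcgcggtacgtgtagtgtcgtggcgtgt
Insig2, chr1:121332663-121332839, minus strand: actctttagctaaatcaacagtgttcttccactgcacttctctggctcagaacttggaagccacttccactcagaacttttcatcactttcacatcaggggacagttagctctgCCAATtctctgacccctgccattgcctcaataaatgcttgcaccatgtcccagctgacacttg
Abca1, chr4:53159989-53160145, minus strand: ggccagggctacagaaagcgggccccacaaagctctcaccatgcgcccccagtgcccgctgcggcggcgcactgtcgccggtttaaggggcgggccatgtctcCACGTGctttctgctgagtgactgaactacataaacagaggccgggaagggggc
Hmgcs1, chr13:119690101-119690350, plus strand: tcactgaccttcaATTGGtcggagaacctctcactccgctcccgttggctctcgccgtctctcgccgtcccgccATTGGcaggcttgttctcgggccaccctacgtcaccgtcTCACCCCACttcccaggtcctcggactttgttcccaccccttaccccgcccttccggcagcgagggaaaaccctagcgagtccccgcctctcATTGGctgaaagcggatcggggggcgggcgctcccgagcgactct

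The CCAAT box was present in the windows of 14 of the 15 synthesis genes that have one, or 14 of 18 windows, and in 33.8% of all 32851 mouse windows. It was present in 6 of 16 windows of the other members. The sterol regulatory element core was present in 1 of the 34 windows of members, that of Hmgcs1, against 1.05% of all windows. CACGTG was present in 6 of the 34 windows, those of Insig1 and Abca1 among them, against 6.02% of all windows. An exact direct repeat of AGGTCA with 4 bases between its copies, 1 form that LXR receptors bind, was in 0 of the 34 windows. It was in 0.0152% of all windows, too few for its absence from 34 windows to mean anything. Repeats with other letters were not searched, so LXR sites may be missed. All these counts are matches of letters in a short window and not measured binding sites.

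The probes used for the members were well above background on all 24 arrays, except those of Srebf2, on 23, and Abcg1, on 17. The median spot intensity was 95.5 to 247 in Cy5 and 161.5 to 505 in Cy3, 70.7% to 86.8% of probes were well above background in Cy5, and 0 spots were saturated. Spots that the scanner software marked as uneven or outlying, 1.34% to 7.64% of an array, were left out. They were 23.5% of the brightest spots in Cy5, the top 10% of an array, 1.79% of all others and 9.88% of the members' spots, so that Acat2 kept 5 arrays, Sc5d 9, Lcat 12, Ebp and Abcg5 17, and Insig2 18. Values with these spots kept are given as such. The 3 8-week groups without multiple binges shared 5 slides and 1 scan, the 10-day groups shared another scan, and the multiple-binge arrays were alone on 2 slides in the last of the 3 scans, so that multiple bingeing and scan cannot be told apart. The correlation of the reference channel between pairs of arrays had a median of 0.986 within the first scan, 0.975 between the first and the second, and 0.92 between the second and the last. The first and the last scan, which hold the groups compared for multiple binges, were not correlated with each other. Of 10 hepatocyte markers 9 were measured, and all 9 were well above background on every array. Their mean log2 ratio ran from 0.02 to 0.36 in P8w and from -0.20 to 0.41 in E8w1B. In bulk RNA, fewer cells of a type and less RNA per cell cannot be told apart.

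Some arrays lay nearer to a pair-fed group than to their own. Over the members, E10d1B replicate 1 lay a median of 0.41 log2 units from the mean of the other arrays of its group and 0.25 from the P10d mean. The median distances to the own group and to P8w were 0.37 and 0.25 for E8w1B replicate 2, 0.29 and 0.21 for E8w replicate 1, and 0.19 and 0.13 for E8w replicate 2. P8w replicate 4 lay 0.30 from its own group and 0.29 from P10d. Counts of called members are given without these arrays too. The arrays were singled out by the members' own values, so a larger difference without one of them follows from that choice and supports nothing.

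The 10-day diet with 1 binge was compared with 10-day pair-feeding first. Abca1 rose, and Insig1, Fdft1 and Npc1 fell, each by 1.44- to 2.32-fold, in 4 of 32 members tested (limma, Benjamini-Hochberg adjusted p under 0.05). Over all genes 6.93% were called in this comparison, 4.16% higher and 2.77% lower. No other member passed with the probe used. Hsd17b7, of the squalene and sterol pathway, had 2 probes at -0.59 and -0.38, of which 1 was called lower in a fit over all probes. Without E10d1B replicate 1, 3 of 28 members passed, against 7.58% of all genes. The 16 synthesis genes tested had a median difference of 0.15, with 0 called higher and 1 called lower, beside a median of -0.01 over all genes.

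Insig1 encodes the sterol-regulated retention protein of the endoplasmic reticulum and is itself an SREBP-2 target. Its log2 ratio was 0.60, 0.04 and 1.04 on the P10d arrays. On the E10d1B arrays it was 0.31, -1.08 and -0.92. Arrays 2 and 3 of the binge group lay below all controls, and array 1 lay among them, so the groups overlapped. The difference was -1.12 ± 0.27 (SE; 2.18-fold lower, limma adjusted p = 0.0102). It was -1.56 without E10d1B replicate 1, a size fixed in part by leaving out the array that lay among the controls. It was -0.86 without replicate 2 (adjusted p = 0.0974), -0.94 without replicate 3 (0.0643) and -0.88 without P10d replicate 3 (0.0684), none of which passed.

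Abca1 encodes the exporter that loads cholesterol onto lipid-poor apolipoprotein A-I. It stood at -0.98, -1.10 and -1.04 on the P10d arrays and at 0.26 and 0.09 on the 2 E10d1B arrays with an unmarked spot. The marked spot of E10d1B replicate 1 read -0.26. All binge arrays lay above all controls. The difference was 1.21 ± 0.29 (SE; n = 2 and 3; 2.32-fold higher, limma adjusted p = 0.0106), and 1.16 with median centring of each array in place of loess, which did not pass (0.062).

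Fdft1, squalene synthase, stood at 0.76, 0.26 and 0.53 on the P10d arrays. It stood at 0.30, -1.01 and -1.12 on the E10d1B arrays. Array 1 of the binge group again lay within the control range. The difference was -1.13 ± 0.29 (SE; 2.19-fold lower, limma adjusted p = 0.0159), and -1.58 without that array, where the same holds. Fdft1 no longer passed without E10d1B replicate 2 (-0.93, 0.117), E10d1B replicate 3 (-0.88, 0.107) or P10d replicate 1 (-1.01, 0.0887), and the 2nd probe of the gene differed by 0.12 (adjusted p = 0.803).

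Npc1, which lets cholesterol out of the lysosome, was 0.30, 0.35 and 0.11 in P10d and -0.33, -0.21 and -0.29 in E10d1B. The groups did not overlap. The difference was -0.53 ± 0.16 (SE; limma adjusted p = 0.0413). The call was lost on leaving out any E10d1B array (-0.50, -0.56 and -0.52, adjusted p = 0.0918, 0.0925 and 0.102), P10d replicate 1 (-0.50, 0.131) or P10d replicate 2 (-0.48, 0.142). On leaving out 1 array at a time, 0 of the members tested passed without E10d1B replicate 2 or replicate 3, where Abca1 was left with 1 array and could not be tested, 2 without P10d replicate 1, and 3 without any of the others. Over all genes 3.39% to 7.58% were called in these fits. With median centring Insig1 (-1.04, 0.0772), Fdft1 (-1.08, 0.0641) and Npc1 (-0.50, 0.32) missed the threshold as well, and with the 2 groups alone in the fit Insig1 (0.0826) and Fdft1 (0.0575) did. The Npc1 call was also lost with slide as a fixed factor (-0.48, 0.0852), with no offset (-0.57, 0.0669), in the scanner software's ratio (-0.60, 0.0623) and in Cy5 alone (-0.48, 0.315).

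Members of other roles missed the threshold. Insig2 differed by 1.80 ± 0.55 (SE; n = 2 and 3; limma adjusted p = 0.0568), and by 2.13 ± 0.53 with marked spots kept (adjusted p = 0.0129). With marked spots kept, 7 of 34 members were called, 3 higher and 4 lower, against 7.31% of all genes (4.34% higher and 2.98% lower). Among them were 1 rise and 1 fall of 11 squalene and sterol genes, and 1 fall of 4 esterification and HDL genes. Lcat was then 0.16, 0.30 and 0.38 in P10d and -0.25, -0.12 and -0.15 in E10d1B, and its groups did not overlap. The value of Insig2 then passed in 3 of the 6 fits that each leave out 1 array. Fdps, which makes farnesyl diphosphate, differed by 1.24 ± 0.48 (adjusted p = 0.133), Lcat, the plasma enzyme that esterifies cholesterol on HDL, by -0.40 ± 0.17 (0.225), and Idi1, the isopentenyl diphosphate isomerase, by 0.65 ± 0.31 (0.253). Without E10d1B replicate 1, Fdps stood at 0.94 (0.345) and Lcat at -0.37 (0.34), and Idi1 could not be tested. Endothelial markers moved between these groups too: 3 of 7 rose, and their mean log2 ratio was -0.49 to -0.34 on the P10d arrays and -0.01 to 0.16 on the E10d1B arrays. Of 6 lymphocyte markers 2 rose, with array means of -0.48 to -0.31 and -0.15 to -0.07, and of 8 tested hepatocyte markers 2 rose, with array means of 0.03 to 0.42 and 0.15 to 0.32. Of 7 stellate cell markers 1 rose. Their part in the results was not tested.

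The 8-week diet without a binge was then compared with 8-week pair-feeding. None of the 30 members tested passed with limma, and 0.138% of all genes did. At an unadjusted p under 0.05 stood 3 of the 30 members, and 1237 of 17439 genes over all. Tm7sf2, a sterol C14-reductase, differed by -0.38 ± 0.14 (SE; limma adjusted p = 0.462), Nsdhl, the sterol C4-decarboxylase, by -0.81 ± 0.33 (0.581), and Pmvk, phosphomevalonate kinase, by -0.34 ± 0.16 (0.688). The median over the members was -0.01, beside 0.01 over all genes. With marked spots kept, 0 of 34 members passed, and 0.196% of all genes. Also without P8w replicate 4, E8w replicate 1 or E8w replicate 2, 0 members passed, against 0.208%, 0.132% and 0.0459% of all genes.

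**Figure D1:**
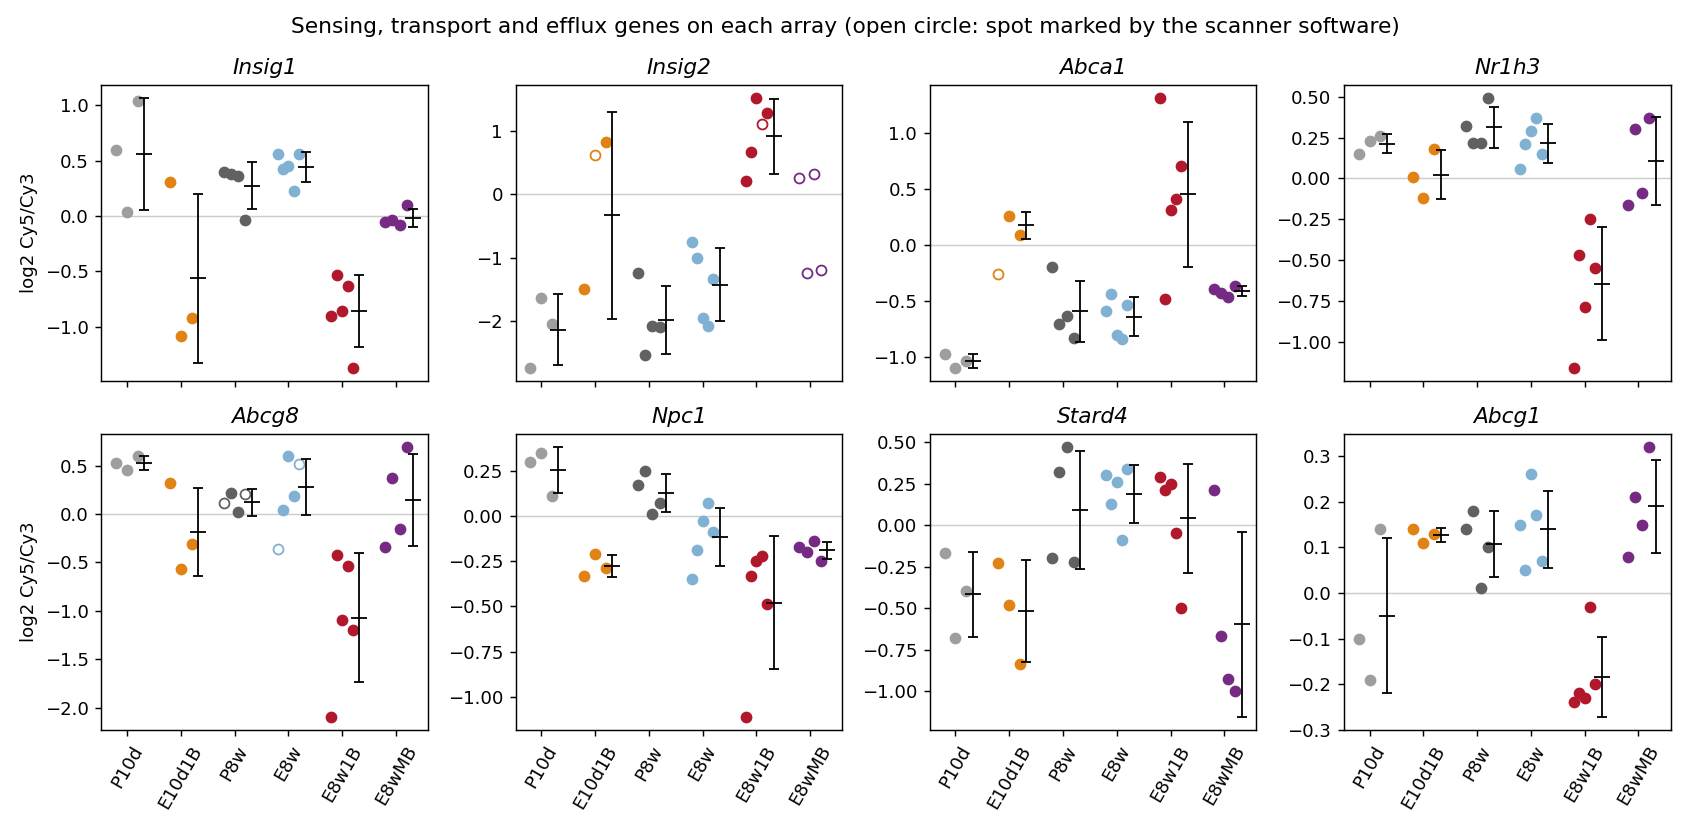
Log2 Cy5/Cy3 (y axis) of 8 members on each array by group (x axis). Filled points are measured spots, open points are marked spots, and bars are the mean and SD over measured spots. Insig1 and Nr1h3 lie below the 8-week pair-fed arrays on all 5 E8w1B arrays, and Insig2 lies above them.

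The 8-week diet with 1 binge was compared with 8-week pair-feeding, the same control as before. Of 30 members tested, 8 were called, 2 higher and 6 lower, against 15.6% of all genes (7.05% higher and 8.5% lower). Insig2 and Abca1 rose, while Nr1h3, Insig1, Npc1, Abcg1, Abcg8 and Ebp fell. The members had a median difference of -0.16, beside 0.02 over all genes. When marked spots were kept, 11 of 34 members were called, 2 higher and 9 lower, against 16.8% of all genes (7.49% higher and 9.31% lower). Without P8w replicate 4 the same 8 were called, against 12.2% of all genes. Without E8w1B replicate 2 these 8 and Scarb1 were called, against 14.9% of all genes. As the plot of values by array shows, the 2 INSIG transcripts moved in opposite directions.

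Insig2 was -1.25, -2.53, -2.08 and -2.09 on the P8w arrays. On the E8w1B arrays it was 0.21, 0.66, 1.51 and 1.28, and the marked spot of replicate 4 read 1.1. Every binge array lay above every pair-fed array. The difference was 2.91 ± 0.43 (SE; n = 4 and 4; 7.49-fold higher, limma adjusted p = 0.00013), the same direction on 3 of 3 shared slides, and 3.02 in the Cy5 channel alone (adjusted p = 0.000109).

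Insig1 was 0.40, 0.38, 0.36 and -0.04 on the P8w arrays. On the E8w1B arrays it was -0.90, -0.53, -0.86, -0.63 and -1.37. The groups did not overlap. The difference was -1.13 ± 0.22 (SE; 2.19-fold lower, limma adjusted p = 0.000786), in the same direction on 4 of 4 shared slides. Srebf2, which encodes SREBP-2 itself, was 0.04, -0.47, -0.38 and -0.21 in P8w and -0.35, -0.50, -0.07, -0.07 and -0.03 in E8w1B. The Srebf2 groups overlapped and it did not pass. Scap, the escort of SREBP-2, differed by -0.18 ± 0.08 (adjusted p = 0.164).

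Nr1h3 encodes LXR alpha, the LXR receptor that is abundant in liver. It was 0.32, 0.22, 0.22 and 0.49 on the P8w arrays and -1.16, -0.47, -0.79, -0.25 and -0.55 on the E8w1B arrays. All binge arrays were below all controls. The difference was -0.96 ± 0.14 (SE; 1.94-fold lower, limma adjusted p = 4.07e-05) and -0.87 with slide as a fixed factor in the fit (adjusted p = 0.000771). Nr1h2, which encodes the widely expressed LXR beta, was -0.15, -0.30, -0.33 and 0.07 in P8w and -0.38, -0.18, -0.21, -0.15 and 0.00 in E8w1B, and it did not pass.

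The 4 efflux transporters did not move as one. Abca1 was -0.20, -0.71, -0.64 and -0.83 on the P8w arrays and 1.31, -0.48, 0.31, 0.41 and 0.71 on the E8w1B arrays. Replicate 2 of the binge group lay within the pair-fed range and the other 4 lay above it. The difference was 1.05 ± 0.21 (SE; 2.07-fold higher, limma adjusted p = 0.00127), with the binge array higher on 4 of 4 shared slides.

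Abcg8, which with Abcg5 forms the canalicular exporter of sterols into bile, was 0.22 and 0.02 on the 2 P8w arrays with an unmarked spot. On the E8w1B arrays it was -2.09, -0.42, -1.09, -0.54 and -1.20. All binge arrays were lower, and the marked P8w spots read 0.11 and 0.21. The difference was -1.19 ± 0.34 (SE; n = 5 and 2; 2.27-fold lower, limma adjusted p = 0.0212). The call was lost with slide as a fixed factor (-0.92, adjusted p = 0.0769), in Cy5 alone (-1.3, 0.117), with median centring in place of loess (-1.07, 0.109) and with the 2 groups alone in the fit (-1.19, 0.0834), and the mean over both probes was -0.65, since the other probe differed by -0.23 (adjusted p = 0.493). Its partner Abcg5 was measured on 17 arrays, read -0.48, 0.01, -0.01, 0.00 and -0.47 in E8w1B, and did not pass with marked spots kept (-0.24, adjusted p = 0.236). The spans of the 2 genes overlap on chromosome 17, Abcg5 at 84658174 to 84683011 and Abcg8 at 84676302 to 84700333 of GRCm38.p6.

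Abcg1, which exports cholesterol to HDL, was 0.14, 0.18, 0.01 and 0.10 in P8w and -0.24, -0.22, -0.23, -0.03 and -0.20 in E8w1B. The groups did not overlap. The difference was -0.29 ± 0.08 (SE; 1.22-fold lower, limma adjusted p = 0.00865). This probe was dim, well above background on 17 of 24 arrays and on 3 of 5 in E8w1B, and the size moved with the background correction, to -0.63 with no offset and -1.19 in the scanner software's own ratio.

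Npc1 was 0.17, 0.25, 0.01 and 0.07 in P8w and -1.11, -0.33, -0.25, -0.22 and -0.49 in E8w1B. All binge arrays lay below all controls, with replicate 1 the lowest. The difference was -0.60 ± 0.13 (SE; 1.52-fold lower, limma adjusted p = 0.00191), and -0.56 with median centring in place of loess, which did not pass (0.0509). Stard4, a soluble sterol carrier of the cytosol, was -0.20, 0.32, 0.47 and -0.22 in P8w and 0.29, 0.21, 0.25, -0.05 and -0.50 in E8w1B with the probe used. Its groups overlapped. That probe differed by -0.05 (adjusted p = 0.926), while the other 2 probes of Stard4 differed by -1.29 (0.000194) and -0.54 (0.00599) in a fit over all probes, so its size and call depend on the probe, while all 3 probes were below 0.

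Of the 16 synthesis enzymes tested after the single binge, 0 rose and 1 fell, with a median of -0.24. Of 18 with marked spots kept, 0 rose and 3 fell. These shares are to be read beside those of all genes given above. Ebp, the sterol delta8-delta7 isomerase, was 0.09, 0.08 and 0.16 on the P8w arrays with an unmarked spot and 0.08, -0.96, -0.54, -0.51 and -0.19 in E8w1B. Replicate 1 of the binge group lay at the edge of the control range. The difference was -0.53 ± 0.15 (SE; n = 5 and 3; 1.45-fold lower, limma adjusted p = 0.025). It missed the threshold without P8w replicate 1 (-0.54, 0.0599), 2 (-0.55, 0.057) or 3 (-0.51, 0.0839), or E8w1B replicate 3 (-0.50, 0.0531), with median centring (-0.61, 0.103), in Cy5 alone (-0.45, 0.148) and with the 2 groups alone (-0.53, 0.123).

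Acat2, the cytosolic thiolase that opens the pathway, could be read only with marked spots kept. It was then 0.23, 0.14, 0.16 and 0.55 on the P8w arrays and -0.63, -0.34, -0.33, -0.51 and -0.92 on the E8w1B arrays. The groups did not overlap. The difference was -0.82 ± 0.12 (SE; limma adjusted p = 5.2e-05), passing in all 9 leave-one-array-out fits. Sc5d, the sterol C5-desaturase, differed by -0.54 ± 0.15 with marked spots kept (adjusted p = 0.0142) and Lcat by -0.36 (0.0216), which lost the call in 1 and 4 of 9 such fits. Mvk differed by -0.45 ± 0.17 (adjusted p = 0.0835), Hmgcs1, cytosolic HMG-CoA synthase, by -0.55 ± 0.38 (0.395), and Soat2, which esterifies cholesterol in hepatocytes, by 0.28 ± 0.14 (0.191). Soat1, the more widely expressed cholesterol acyltransferase, was 0.32, 0.25, 0.18 and -0.09 in P8w and 0.01, 0.63, 0.33, 0.05 and -0.04 in E8w1B, and did not pass. Scarb1, the hepatic HDL receptor, differed by 0.21 ± 0.17 (0.475).

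**Figure D2:**
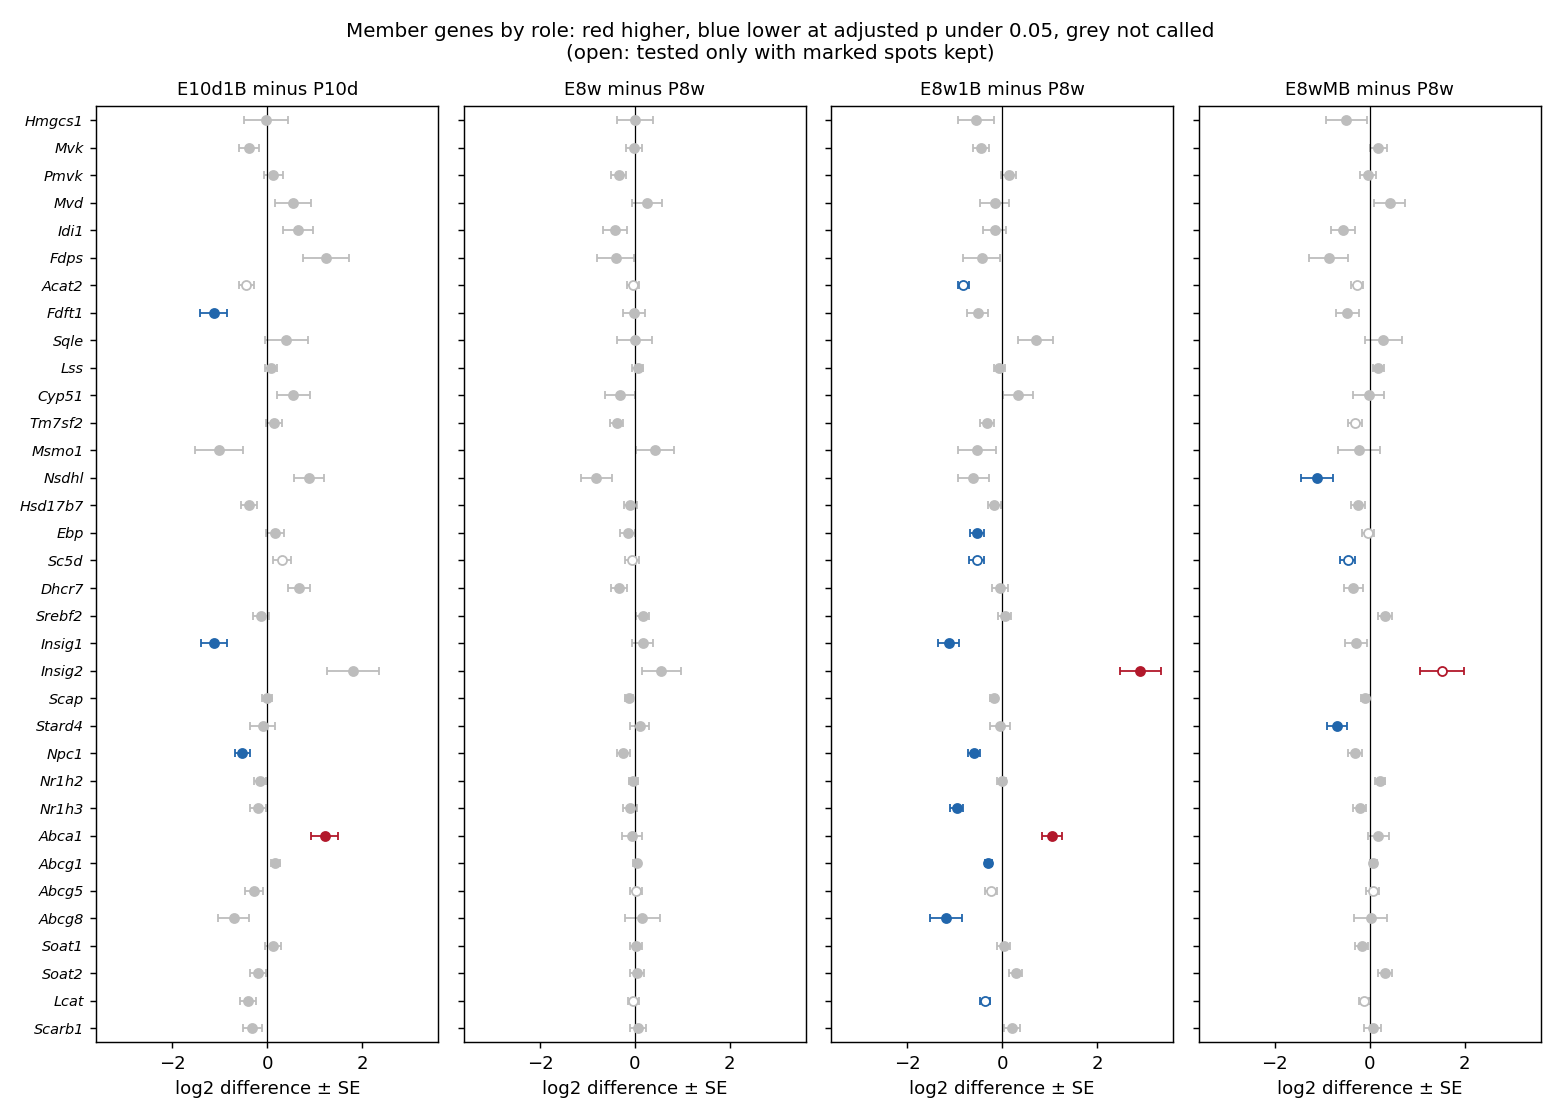
Log2 difference (x axis) with its SE for 34 members ordered by role (y axis) in 4 comparisons with pair-fed controls. Red and blue points were called higher and lower, grey points were not called, and open points could be tested only with marked spots kept. Among filled points the 8-week single-binge panel holds the most calls, 2 higher and 6 lower, and the panel of 8 weeks of ethanol alone holds none.

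Genes of 4 related lists were read beside the members. Of 15 tested genes of sterol synthesis, SREBP-2 targets and the isoprenoid branch outside the members, 1 rose and 3 fell in E8w1B against P8w. Nus1, a subunit of the dolichol-making prenyltransferase, rose by 0.86 ± 0.09 (SE; limma adjusted p = 3.25e-06), and Pcyt2, of phosphatidylethanolamine synthesis, fell by 0.89 on the log2 scale. Aacs, acetoacetyl-CoA synthetase, differed by -0.85 ± 0.24 (adjusted p = 0.0166). Of 6 tested LXR targets outside the members, 0 rose and 2 fell. Srebf1, which encodes SREBP-1 and stands also in the list of SREBP control genes as the 1 of 9 that fell, differed by -2.72 ± 0.34 (adjusted p = 7.71e-06), and Apoe by -0.39 ± 0.11 (0.0134). Of 14 tested genes of sterol uptake, trafficking and bile acid output, 1 rose and 5 fell. Cyp7a1, the rate-limiting enzyme of bile acid synthesis, differed by -2.52 ± 0.46 (adjusted p = 0.00054), and Vldlr, a lipoprotein receptor, by 0.86 ± 0.14 (0.000213). In the 10-day comparison these 4 lists gave 1 rise and 1 fall of 17, 0 of 6, 1 rise and 0 falls of 16, and 0 of 9. In E8w against P8w, 0 genes of the 4 lists passed. The rise in the uptake list at 10 days was that of Osbp, an oxysterol-binding protein, at 0.95 ± 0.13 (adjusted p = 4.17e-05).

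Neutrophil markers differed between E8w1B and P8w as well: 3 of 7 rose, and their mean log2 ratio was -0.39 to -0.15 in P8w and -0.26 to 0.42 in E8w1B. Of 6 tested Kupffer cell and macrophage markers 0 rose and 2 fell, with array means of -0.12 to 0.52 and -0.40 to 0.28. Of 7 endothelial markers 1 rose and 3 fell, with array means of -0.21 to -0.11 and -0.56 to -0.01. Their part in the members' results was not tested.

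The same binge arrays were set against 8 weeks of ethanol without a binge, which gives the difference made by adding 1 binge. This comparison shares the E8w1B arrays with the last. Of 31 members tested 8 were called, 3 higher and 5 lower, against 15.7% of all genes (7.55% higher and 8.15% lower). With marked spots kept, 12 of 34 members were called against 16.6% of all genes. Without E8w1B replicate 2, 8 members were called against 15.2% of all genes, with Msmo1 in place of Pmvk. Without E8w replicate 1, 9 were called, the same 8 and Mvk, against 14.3%, and without E8w replicate 2, 6 of the 8 were called against 12.9%.

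Insig1 was 0.56, 0.42, 0.45, 0.23 and 0.56 on the E8w arrays, all of them above every E8w1B array. Its difference was -1.30 ± 0.21 (SE; 2.46-fold lower, limma adjusted p = 0.000103). Insig2 was -0.76, -1.01, -1.95, -2.08 and -1.34 in E8w, all below every measured E8w1B array, and differed by 2.35 ± 0.41 (SE; n = 4 and 5; 5.09-fold higher, adjusted p = 0.000518). Both had one direction on every slide that held both groups, 5 of 5 for Insig1 and 4 of 4 for Insig2.

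Nr1h3 was 0.06, 0.21, 0.29, 0.37 and 0.15 on the E8w arrays. All lay above every E8w1B array, and the difference was -0.86 ± 0.13 (SE; limma adjusted p = 6.15e-05). Abca1 was -0.59, -0.44, -0.81, -0.84 and -0.54 in E8w. Replicate 2 of E8w1B, at -0.48, lay within this range and the others above it, and the difference was 1.09 ± 0.20 (adjusted p = 0.00047), with 4 of 5 slides higher.

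Abcg8 was 0.04, 0.60 and 0.19 on the E8w arrays with an unmarked spot, all above E8w1B. It differed by -1.34 ± 0.30 (SE; n = 5 and 3; 2.54-fold lower, limma adjusted p = 0.00346), by -0.82 as the mean over both probes, and by -0.45 at the other probe, which did not pass (adjusted p = 0.0765). Abcg1 was 0.15, 0.05, 0.26, 0.17 and 0.07 in E8w, all above E8w1B. It differed by -0.33 ± 0.07 (adjusted p = 0.0021), by -0.74 with no offset and by -1.24 in the scanner software's ratio.

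Pmvk and Npc1 completed the list. Pmvk was 0.23, -0.27, -0.29, -0.41 and -0.72 in E8w and 0.22, 0.32, 0.22, 0.13 and 0.06 in E8w1B. Replicate 1 of E8w lay within the binge range, and the difference was 0.48 ± 0.15 (SE; limma adjusted p = 0.0318). Npc1 was -0.35, -0.19, -0.03, 0.07 and -0.09 in E8w, overlapped E8w1B, and differed by -0.36 ± 0.12 (adjusted p = 0.043). Without E8w1B replicate 1 the Npc1 difference was -0.21 (0.116). Npc1 also missed the threshold without E8w1B replicate 5 (-0.36, 0.075) or E8w replicate 2, 3, 4 or 5 (-0.38, -0.34, -0.32 and -0.35, adjusted p = 0.0584 to 0.114). Pmvk missed it without E8w replicate 2, 3, 4 or 5 (0.48, 0.48, 0.45 and 0.37) or E8w1B replicate 1, 2 or 3 (0.47, 0.45 and 0.47), with adjusted p from 0.0546 to 0.109. In Cy5 alone Pmvk (0.52, 0.0844) and Npc1 (-0.42, 0.166) missed it, as they did with median centring (0.52, 0.0857 and -0.30, 0.359) and in the scanner software's ratio (0.50, 0.0535 and -0.38, 0.0752), and Npc1 did with the 2 groups alone (0.167) and with no offset (-0.41, 0.0523).

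Of the members that missed, Msmo1, the sterol C4-methyl oxidase, differed by -0.94 ± 0.34 (SE; limma adjusted p = 0.0708) and passed with slide as a fixed factor (0.00745). Ebp differed by -0.38 ± 0.14 (0.0856) and Cyp51, lanosterol demethylase, by 0.63 ± 0.27 (0.128). Stard4 did not pass with the probe used. All 3 of its probes were below 0, from -1.10 to -0.15, and 2 of them were called lower in the fit over all probes. With marked spots kept, Acat2 differed by -0.78 ± 0.12 (adjusted p = 4.27e-05), against E8w arrays at 0.29, 0.24, 0.20, 0.22 and 0.22, all above the binge arrays. The 16 synthesis genes tested had 1 rise and 0 falls without marked spots, with a median of -0.06. With marked spots kept, 18 were tested, and 1 rose and 3 fell, where 8.05% of all genes were called higher and 8.58% lower. Of 4 esterification and HDL genes 0 rose and 1 fell in that fit. Outside the members, 2 rose and 4 fell of 15 in the synthesis list, 1 and 2 of 6 LXR targets, 1 and 5 of 16 in the uptake and bile acid list, and 0 and 1 of 9 in the SREBP control list. Of the markers, 2 of 7 neutrophil genes rose and 1 fell, 2 of 7 endothelial genes rose and 3 fell, 2 of 7 stellate cell genes rose and 1 fell, and 2 of 8 hepatocyte genes rose and 1 fell. Their part in the results was not tested.

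The effect of the single binge at 8 weeks was set against that at 10 days as an interaction, the 8-week difference minus the 10-day difference. Of 30 members tested 1 was called, Abcg1, lower, against 3.29% of all genes (2.4% lower). Its interaction was -0.47 ± 0.12 (SE; limma adjusted p = 0.0277), from -0.29 at 8 weeks and 0.17 at 10 days. The P10d arrays, at -0.10, -0.19 and 0.14, were not well above background for this probe on any of 3 arrays, so that the 10-day difference to E10d1B (0.14, 0.11 and 0.13) rests on a bound. The call was lost without P8w replicate 2 (-0.44, 0.0604), P10d replicate 1 (-0.44, 0.0777) or 2 (-0.40, 0.107), or E10d1B replicate 1 (-0.46, 0.0621), 2 (-0.47, 0.0545) or 3 (-0.47, 0.0529), and with slide as a fixed factor (-0.43, 0.2). It was lost with median centring (-0.52, 0.155), in Cy5 alone (-0.64, 0.0552), with array weights (-0.42, 0.0548) and with the compared groups alone (-0.47, 0.0752). In the scanner software's ratio the size was -1.39 (0.124), and -1.39 (0.116) in the authors' deposited table, and neither passed. Without E8w1B replicate 1, 2 or 4, 2 members passed, against 3.82%, 3.09% and 4.16% of all genes.

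The 2 effects had estimates that were close for some members and apart for others. The interaction of Insig1 was -0.01 ± 0.34 (SE; limma adjusted p = 0.993), of Abca1 -0.17 ± 0.36 (0.885) and of Insig2 1.1 ± 0.70 (0.483). That of Nr1h3, which was 0.15, 0.23 and 0.26 in P10d and 0.01, -0.12 and 0.18 in E10d1B, was -0.77 ± 0.22 (0.0511; -0.77 and 0.0464 with marked spots kept). Those of Nsdhl and Fdps were -1.5 ± 0.46 (0.0871) and -1.67 ± 0.62 (0.164). Without E10d1B replicate 1, 0 of 26 members passed against 2.37% of all genes (limma), and Insig1 stood at 0.43 ± 0.27 (0.51). With marked spots kept 3 of 34 were called, all lower, against 4.06% of all genes (2.94% lower). Outside the members, the interaction of Srebf1 was -3.37 ± 0.53 (0.000361).

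Multiple binges were compared with 8-week pair-feeding, with 8 weeks of ethanol alone and with the single binge. The E8wMB arrays stand in all of these comparisons. They were scanned apart from the others, and the Cy3 reference differed between the scans, so the called ratios are given beside the Cy5 channel alone. Cy5 alone called 48.8% of all genes against P8w, 51.2% against E8w and 51.1% against E8w1B, so a pass in Cy5 alone is to be read beside these shares. Against pair-feeding 2 of 27 members were called, both lower, where 20.7% of all genes were called (7.53% higher and 13.2% lower). Against ethanol alone 1 of 28 was called, lower, where 25.4% of all genes were called (9.81% higher and 15.6% lower). Of the genes called against pair-feeding, 36.4% were higher in this fit, and 51.2% in the scanner software's own ratio.

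Nsdhl was 0.52 and 0.54 on the 2 P8w arrays with an unmarked spot, and the marked ones read 0.54 and -0.29. It was -0.16, -1.03, -0.17 and -0.97 on the E8wMB arrays, all below the measured P8w arrays. The marked spot at -0.29, of P8w replicate 4, lay below E8wMB replicates 1 and 3, so the groups overlapped once it was read. With marked spots kept the group means were 0.33 in P8w and -0.59 in E8wMB. The 3 probes of Nsdhl differed by -1.11 to -0.59, and 2 of them were called lower in the fit over all probes. The difference was -1.11 ± 0.34 (SE; n = 4 and 2; 2.16-fold lower, limma adjusted p = 0.0259), and -1.36 in Cy5 alone (adjusted p = 0.00899). It was -0.97 (0.0625) without E8wMB replicate 2 and -0.98 (0.0679) without replicate 4.

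Stard4 was 0.21, -0.67, -0.93 and -1 on the E8wMB arrays, against the P8w arrays at -0.20 to 0.47 and the E8w arrays at 0.30, 0.13, 0.26, -0.09 and 0.34. E8wMB replicate 1 lay among the controls and the other 3 below them. The difference from P8w was -0.69 ± 0.22 (SE; limma adjusted p = 0.0292) and from E8w -0.79 ± 0.21 (adjusted p = 0.00855). In Cy5 alone these were -1.47 (2.14e-06) and -1.37 (2.48e-06), and in the reference channel -0.78 (0.0255) and -0.61 (0.063). Against E8w all 3 probes of Stard4 were called lower, from -1.11 to -0.35. Against P8w the call was lost without P8w replicate 2 (-0.62, 0.0936) or 3 (-0.57, 0.106), or E8wMB replicate 2 (-0.67, 0.0581), 3 (-0.58, 0.0973) or 4 (-0.56, 0.105), in the scanner software's ratio (-0.64, 0.0793) and with the 2 groups alone (-0.69, 0.0848). Among the members, 0 passed against P8w without P8w replicate 2 or 3 or E8wMB replicate 2 or 4, 1 without E8wMB replicate 3 and 3 without P8w replicate 4. Against E8w 2 passed without E8w replicate 1 or 4 or E8wMB replicate 2. Over all genes, fits without 1 array called 13% to 21.3% against P8w and 19.2% to 24.8% against E8w.

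Most members that moved with the single binge did not pass after multiple binges. Insig1 was -0.05, -0.04, -0.08 and 0.10 on the E8wMB arrays, below P8w replicates 1 to 3, and differed from P8w by -0.29 ± 0.23 (SE; limma adjusted p = 0.39) and from E8w by -0.46 ± 0.22 (0.122). Nr1h3 was -0.16, 0.30, -0.09 and 0.37, overlapped P8w, and differed from it by -0.21 ± 0.14 (0.329). Abca1 was -0.39, -0.43, -0.47 and -0.37, overlapped P8w, and differed from it by 0.18 ± 0.22 (0.606). Npc1 came nearest to passing, at -0.31 ± 0.14 (0.1) against P8w, and of other roles Soat2 at 0.33 ± 0.15 (0.11), Nr1h2 at 0.22 ± 0.10 (0.12) and Srebf2 at 0.32 ± 0.15 (0.13). In Cy5 alone against P8w, Insig1 differed by -1.65 (4.36e-07), Nr1h3 by -0.64 (0.0124) and Abca1 by 1.17 (0.000105). These 3 passed where 48.8% of all genes did. Their reference channel differed by -1.47, -0.48 and 0.95. The Srebf2 arrays of E8wMB read -0.15, -0.04, 0.11 and 0.34 and those of Nr1h2 -0.08, -0.08, 0.18 and 0.15.

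All 4 E8wMB spots of Insig2 were marked. They read 0.25, -1.24, 0.32 and -1.20, 2 of them near the single-binge arrays and 2 near the E8w arrays. With marked spots kept, Insig2 differed from P8w by 1.53 ± 0.46 (SE; limma adjusted p = 0.0194), a call lost in 3 of 8 leave-one-array-out fits, where 4 of 34 members and 21.4% of all genes were called. Its Cy5 signal alone differed by 3.87 and its Cy3 reference signal by 2.32 (adjusted p = 2.99e-08), so that the ratio holds a large difference in the reference between scans.

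Against the single binge, 7 of 28 members were called, 5 higher and 2 lower, where 29.9% of all genes were called (11.8% higher and 18.1% lower). By ratio, Nr1h3 was higher by 0.75 ± 0.14 (SE; limma adjusted p = 0.000395), Abcg1 by 0.37 ± 0.08 (0.000828), Abcg8 by 1.21 ± 0.27 (0.00276), Insig1 by 0.84 ± 0.22 (0.006) and Mvk by 0.62 ± 0.17 (0.00872). Abca1 differed by -0.87 ± 0.21 (0.00384) and Stard4 by -0.64 ± 0.21 (0.0245). The Cy5 channel did not always share the sign of the ratio. The 2 groups lay in different scans, so a single channel also holds any difference between scans. Its sign therefore cannot decide whether the ratio is right. In Cy5 alone Insig1 differed by -0.41 (0.0714) and its reference by -1.42 (2.48e-09), Mvk by -0.53 (0.0291) with a reference difference of -1.28, and Abca1 by 0.14 (0.592) with a reference difference of 0.93, so these 3 turned their sign.

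In the same comparison Nr1h3 was 0.36 in Cy5 alone (limma adjusted p = 0.12) and Abcg8 0.49 (0.323), which kept the sign without passing. Abcg1 was 0.82 (8.89e-07) and Stard4 -1.18 (1.67e-05), and both passed where 51.1% of all genes did. With median centring of each array in place of loess, Nr1h3 (0.49, 0.074), Mvk (0.40, 0.0949) and Insig1 (0.61, 0.0586) missed the threshold. The mean over the 3 probes of Stard4 was -0.16 (0.43). Stard4 also missed it without E8w1B replicate 1 (-0.58, 0.0605), 2 (-0.60, 0.0511) or 3 (-0.59, 0.0574), or E8wMB replicate 2 (-0.62, 0.0581), 3 (-0.53, 0.0861) or 4 (-0.51, 0.111). Lss, lanosterol synthase, at 0.24 ± 0.10 (0.0787), Nsdhl at -0.50 (0.165) and Soat1 at -0.20 (0.248) were not called. The 3 probes of Soat1 ran from -0.20 to 0.22, and 1 of them was called higher in the fit over all probes. Without E8w1B replicate 2, 6 of the 7 members were called, Stard4 being the one lost, against 27.1% of all genes. Outside the members, the synthesis list gave 1 rise and 5 falls of 14 genes in E8wMB against P8w and 3 and 2 of 15 against E8w1B, the LXR targets 0 and 1 of 5 and 2 and 1 of 6, the uptake and bile acid list 0 and 1 of 10 and 3 and 1 of 13, and the SREBP control list 0 and 2 of 8 and 1 and 1 of 8. Of the markers, 2 of 7 neutrophil genes rose and 2 fell against P8w, and 1 rose and 3 fell against E8w1B, with array means of -0.33 to -0.06 in E8wMB. Of 7 endothelial genes 1 rose and 1 fell against P8w, and 3 rose and 2 fell against E8w1B, with array means of -0.19 to 0.19. Of 8 hepatocyte genes 1 and 2 rose and 0 fell. Of 6 lymphocyte genes 1 rose and 1 fell against P8w, and 2 rose and 1 fell against E8w1B. Of 7 stellate cell genes 0 rose, while 1 fell against P8w and 2 fell against E8w1B. Kupffer cell and macrophage genes had 0 rises and 1 fall of 6 against P8w, and 1 rise and 1 fall of 7 against E8w1B. Their part in the results was not tested.

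**Figure D3:**
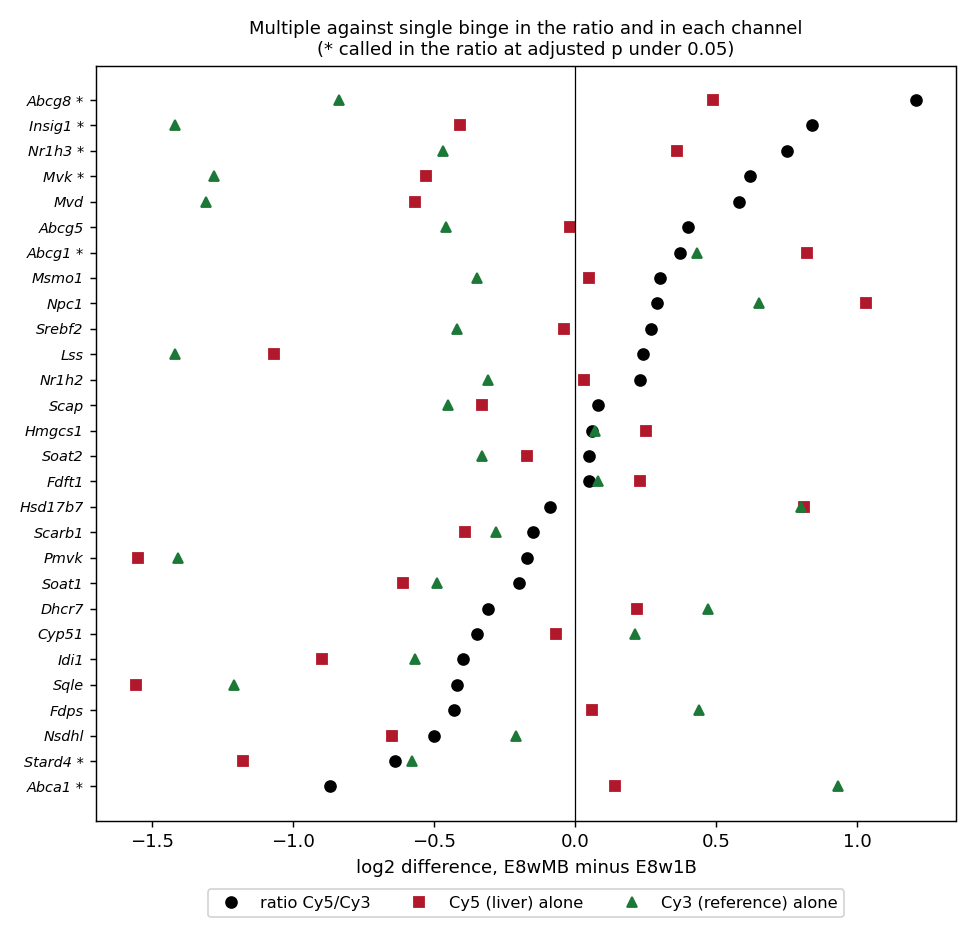
Log2 difference of E8wMB minus E8w1B (x axis) for 28 members (y axis) as the ratio, in Cy5 alone and in the Cy3 reference alone; a star marks a difference called in the ratio. Of the 7 called members, Insig1, Mvk and Abca1 have a ratio and a Cy5 difference of opposite sign.

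The 2 pair-fed groups, 8 weeks against 10 days, lay on different slides and scans, so that the length of feeding and the scan cannot be told apart. Of 30 members 1 was called, higher, where 1.61% of all genes were called (1.13% higher). Dhcr7, the last reductase of the pathway, was -0.78, -1.06 and -0.70 in P10d and 0.18, 0.17, 0.13 and -0.54 in P8w. The groups did not overlap, and P8w replicate 4 stood nearest to P10d. The difference was 0.83 ± 0.20 (SE; 1.78-fold higher, limma adjusted p = 0.0325), 1.54 in Cy5 alone (0.000501) and 0.74 in the reference (0.00771). The call was lost without P8w replicate 1 (0.76, 0.081), 2 (0.77, 0.109) or 3 (0.78, 0.0948), or P10d replicate 1 (0.86, 0.0798), 2 (0.73, 0.161) or 3 (0.90, 0.0644), and 2 members passed without P8w replicate 4, against 2.92% of all genes. Fdps differed by 1.31 ± 0.45 (0.135), Pmvk by 0.50 ± 0.18 (0.165) and Stard4 by 0.51 ± 0.24 (0.305).

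The synthesis genes were also compared from array to array within groups. Over 18 synthesis genes and 24 arrays, with each group's mean taken away and marked spots kept, the 153 pairs of genes had a median Pearson r of 0.59, from -0.51 to 0.96, and 137 pairs were above 0. These values are a description: genes on an array share its RNA, labelling and normalization. Idi1 had the highest mean r with the others, 0.69, then Cyp51 and Nsdhl with 0.68, Fdps with 0.66 and Sqle, squalene epoxidase, with 0.64. The log2 ratio of Idi1 was -0.59 on P10d replicate 2 and 0.33 on both other arrays of that group. It was -0.56 on E8w replicate 5 and 0.07 to 0.54 on the others, and 0.04 on P8w replicate 4 against 0.69 and 0.80 on the 2 other measured arrays. Idi1 passed no comparison, and its 2 probes had the same sign in all 9. Acat2 stood at 0.27 and Ebp at -0.22.

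Some arrays were low for most of the pathway. P10d replicate 2 was the lowest of its group for 17 of 18 synthesis genes, P8w replicate 4 for 15 and E8w replicate 5 for 15. E10d1B replicate 3 was the lowest for 12 and E8w1B replicate 5 for 11. The mean over the 18 genes was -0.63, -0.26, -0.62, -0.39 and -0.42 on these 5 arrays, which were picked out after their values were seen. Between groups the mean ran from -0.17 ± 0.40 (SD, n = 3) in P10d to 0.12 ± 0.25 (SD, n = 4) in P8w, with E8w at -0.03 ± 0.34 (SD, n = 5), E10d1B at -0.04 ± 0.40 (SD, n = 3), E8w1B at -0.14 ± 0.23 (SD, n = 5) and E8wMB at -0.10 ± 0.19 (SD, n = 4). Neighbours in this order lay closer than the SD within a group. The genes outside the members whose level was most like this mean over the 24 arrays were Acsl3 with a Pearson r of 0.70, Fhl2 with 0.66, Cetn2 and Pcdh19 with 0.65 and Rad51b with 0.64.

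**Figure D4:**
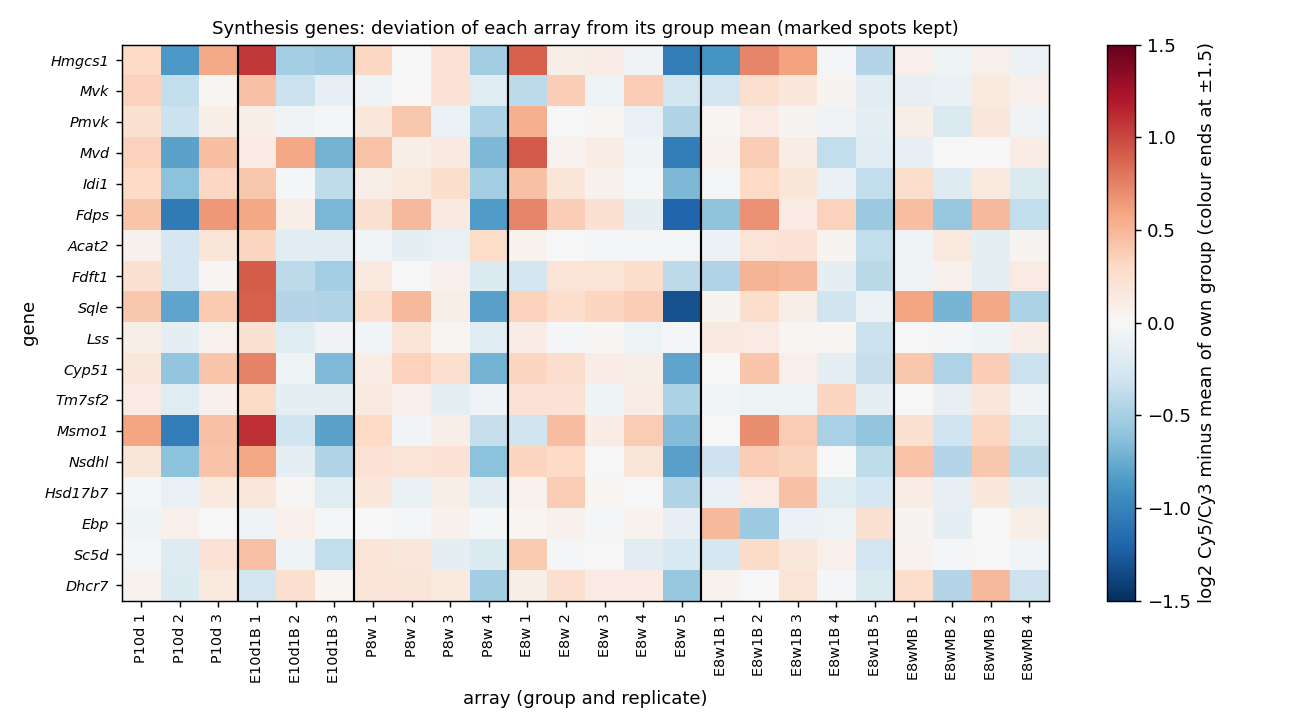
Deviation of log2 Cy5/Cy3 from the group's own mean (colour, ends at ±1.5) for 18 synthesis genes (rows) on 24 arrays (columns), marked spots kept. The columns of P10d replicate 2, P8w replicate 4, E8w replicate 5, E10d1B replicate 3 and E8w1B replicate 5 hold their group's lowest value in most rows.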

How the data were processed

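Per the file headers, Agilent Feature Extraction 11.5.1.1 gave the deposited median spot and background intensity in both channels and a log10 ratio of its processed, background-subtracted and dye-normalized signals. The deposited table held log2 ratios that followed the log2 of those processed signals with a slope of 1 and column medians of -0.0882 to 0.0736, while its centring is not given in the sources used here. The median intensities were corrected with normexp (offset 50) and normalized by loess within each array in limma 3.58.1 (R 4.3.3, statmod 1.5.0, version 1.17.8 of data.table). Marked spots were left out, replicate spots of 245 probes were averaged, and 36648 of 41174 probes passed the filter, which asks for a Cy5 signal well above background on 3 or more arrays. The files hold an older and a newer version of the probe annotation, the newer in the E8wMB files alone. Accessions of the newer one were matched to symbols of GRCm38.p6, which named 27816 probes. A gene was read from its brightest probe with 2 or more arrays in each group. For members with no such probe, the one measured in most groups was used, which was decided after the data were seen.

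Arrays were grouped by their titles. A single limma model with 6 group means, fitted to 24 arrays with empirical Bayes moderation, gave 9 comparisons. Each took in the genes with 2 or more measured arrays in its groups, and a gene was called at a Benjamini-Hochberg adjusted p under 0.05. The fit was tested on simulated data with 200 changed genes. The members and lists were chosen with earlier results of these data known. Of each comparison, the members that passed and up to 3 of other roles nearest to it are named, and values by array are given for members that passed at least 2 comparisons or stand first in a role. The number of arrays limits the precision. The model did not pair same-numbered arrays of different groups, and whether they form pairs was not tested. Alternatives changed the slide block, replicate block, normalization, background, ratio source, filter, marked spots, channel, weights, groups in the fit, probe rule and arrays.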

Additional observations from a re-analysis of the deposited data

Results flagged for a closer look

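Single arrays stood apart from the rest of their group in 9 of 109 groups of 4 or 5 arrays scanned, and chance alone flags about 1 in 20 groups. E8w replicate 5 was low for 4 sterol genes: Sqle at -1.94 against -0.37 to -0.30 on the other arrays, Cyp51 at -1.23 against -0.37 to -0.12, Nsdhl at -1.09 against -0.28 to 0.05, and Dhcr7 at -0.92 against -0.26 to -0.10 (log2 Cy5/Cy3). P8w replicate 4 was low for Dhcr7, at -0.54 against 0.13 to 0.18, and for Insig1, at -0.04 against 0.36 to 0.40. Lss was low on E8w1B replicate 5, at -0.53 against -0.18 to -0.06. On E8w1B replicate 4, Tm7sf2 was high at 0.33 against -0.12 to -0.03, and Abcg1 was -0.03 against -0.24 to -0.20. The effect of the single binge on Abcg1 differed between 8 weeks and 10 days by -0.47 in the test of the interaction, a value that rests on a bound, since the probe was not well above background on any P10d array, and whose call was lost on leaving out any of 6 single arrays.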

How the results depend on the processing

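Of 745 values of called members under alternatives, 639 kept direction and call, 103 lost the call and 3 reversed. The tally includes Aquantile scaling, which leaves ratios as they are, so its calls were bound to be kept. It also includes the fit with no filter on dim probes, where the members' values stay the same, since all their probes passed the filter. In E8w1B against P8w, Insig1, Insig2, Nr1h3, Abca1 and Abcg1 kept theirs under every alternative run, as they did against E8w. The 3 reversals were in Cy5 alone for E8wMB minus E8w1B: Abca1 0.14, Insig1 -0.41 and Mvk -0.53. These groups lay in different scans, so a single channel also holds any difference between scans and cannot decide on the ratio.

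Counts of called members that moved by over 1.5 times were as follows, with the share of all genes called in brackets. For E10d1B against P10d (4) they were 0 with median centring [2.27%] and 7 with marked spots kept [7.31%]. For E8w1B against P8w (8) they were 5 with median centring [7.36%], and against E8w (8) 5 in Cy5 alone [8.45%]. For E8wMB against P8w (2) they were 5 with median centring [27.2%], 4 with marked spots kept [21.4%] and 14 in Cy5 alone [48.8%]. They were 4 with array weights [26.7%] and 4 with the 2 groups alone [20.2%]. For E8wMB against E8w (1) they were 15 in Cy5 alone [51.2%] and 4 with the groups alone [28%]. They were 2 with the replicate block [27.9%], median centring [28.4%], offset 0 [24.6%], the scanner ratio [25.3%], the deposited table [25.9%] and array weights [30.8%]. For E8wMB against E8w1B (7) they were 11 in Cy5 alone [51.1%]. For P8w against P10d (1) they were 4 with the replicate block [4.54%], 9 in Cy5 alone [8.96%] and 2 with array weights [4.33%]. For the interaction (1) they were 2 with the slide as a random block [3.88%], 2 with the replicate block [3.12%] and 3 with marked spots kept [4.06%]. They were 0 with median centring [1.02%], the scanner ratio [2.66%], the deposited table [2.94%], Cy5 alone [1.32%], array weights [3.71%] and the groups alone [2.36%]. Without 1 array at a time the counts ran from 0 to 3 for E10d1B against P10d, 0 for E8w against P8w, 6 to 9 for E8w1B against P8w and against E8w, 0 to 3, 1 to 2 and 6 to 8 for E8wMB against P8w, E8w and E8w1B, 0 to 2 for P8w against P10d and 0 to 2 for the interaction. The shares of all genes ran from 3.39% to 7.58% for E10d1B against P10d and from 0.0351% to 0.208% for E8w against P8w. They ran from 12.2% to 17% for E8w1B against P8w and from 12.9% to 16.7% against E8w. For E8wMB they ran from 13% to 21.3% against P8w, 19.2% to 24.8% against E8w and 20.2% to 32.7% against E8w1B. They ran from 0.13% to 2.92% for P8w against P10d and from 2% to 4.16% for the interaction. The causes were not tested.

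Deviations of same-numbered arrays correlated between 0.0564 and 0.265 for the 10-day groups and between -0.247 and -0.0612 for the pair-fed groups. They correlated between 0.0263 and 0.28 for E8w1B and E8w, and between -0.0201 and 0.355 for E8wMB and E8w1B. The other comparisons ran from -0.249 to 0.273. Differently numbered arrays were not set beside them, so whether replicate numbers pair the arrays was not tested. With median centring the median of all genes was -0.12 in E8wMB against P8w and -0.14 against E8w1B. It moved the share of higher calls from 60% to 73.2% for E10d1B against P10d, from 48.1% to 61.3% for E8w1B against E8w, from 39.5% to 29.5% for E8wMB against E8w1B and from 70.5% to 97.9% for P8w against P10d. The scanner ratio moved it from 36.4% to 51.2% for E8wMB against P8w, from 38.7% to 54.1% against E8w and from 39.5% to 55.3% against E8w1B. Aquantile scaling leaves ratios as they are. The probe-level fit, the brightest probe whatever its coverage and the checks with marked spots kept were chosen after seeing the data. Dim probes, Abcg1 among them, limit the size of a fold.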
